A study of Mus musculus and Homo sapiens with 83 samples.

Results

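Actin cytoskeleton genes and genes known as targets of the transcription factors SRF and YAP were followed in single mouse embryonic stem cells (mESCs) that were left to differentiate. The set holds 10 genes, listed by symbol: Actb, Actg1, Acta2, Ankrd1, Tagln, Tagln2, Myl9, Tpm1, Cfl1 and Pfn1. They are 10 of the 55401 mouse gene IDs counted, and all 10 were found once in the count files. The cells were of the E14 line (129/Ola), an embryonic stem cell line. Day 0 cells (6 cells) grew in medium with leukemia inhibitory factor (LIF) on feeder cells made from mouse embryonic fibroblasts (MEF). Cells of day 3 (7 cells), day 6 (6 cells) and day 9 (5 cells) had been moved to dishes coated with 0.1% gelatin and grew with neither LIF nor feeders. LIF withdrawal, loss of feeders and the change of surface therefore cannot be told apart between day 0 and the later days. RNA came from the cytoplasm of each cell by AMAR-seq, a chip method that keeps the nucleus for DNA methylation and chromatin measurements and makes a Smart-seq2 type library from the rest. The DNA libraries and the human K562 cells of the series were not used here.

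Actin is the protein of the thin filaments that shape a cell and carry its tension. Free actin monomers hold the cofactors MRTF-A and MRTF-B in the cytoplasm, and when monomers are used up by filament growth the cofactors enter the nucleus and act with SRF on a promoter element called the CArG box. Many SRF targets encode actins and contractile proteins, so the filament system feeds back on its own genes. YAP and TAZ are cofactors that enter the nucleus of spread or tense cells, bind TEAD factors and switch on genes such as Ankrd1, and the Hippo kinases keep them out.

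Promoter stretches are shown because the letters by which these factors are known to bind can be read in them. They come from RefSeq on the GRCm38.p6 build, which held 8 of the 10 genes (all but Actb and Tagln), and each runs 250 bases up to the start the table uses. That start is not always the outer end of the gene as positioned below. The Tpm1 stretch lies wholly inside the gene, as does that of Pfn1, which is not printed. Most of the Acta2 stretch lies inside its gene, and that of Myl9 reaches into the 5′ end of its gene. Capitals mark a match on either strand to the CArG box without a mismatch, or to the TEAD core GGAATG, which reads CATTCC on the other strand. Near matches to the CArG box, such as ccctatatgg and ccttgtttgg in Acta2, hold a mismatch and are left in lower case. The motifs share no letters in the windows below. Actg1 and Myl9 are shown for their CArG box. Ankrd1 and Acta2 are shown for TEAD cores beside genes that were detected in 1 and 10 of 24 cells, and Tpm1 because all its day 9 cells were above all its day 0 cells.
Actg1, minus strand of chr11:120348496-120348745: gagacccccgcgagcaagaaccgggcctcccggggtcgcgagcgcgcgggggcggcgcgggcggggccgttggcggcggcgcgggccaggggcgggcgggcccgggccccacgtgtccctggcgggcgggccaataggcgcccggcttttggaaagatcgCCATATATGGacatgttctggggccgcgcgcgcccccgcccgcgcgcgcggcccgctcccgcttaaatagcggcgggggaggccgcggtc
Myl9, plus strand of chr2:156775214-156775463: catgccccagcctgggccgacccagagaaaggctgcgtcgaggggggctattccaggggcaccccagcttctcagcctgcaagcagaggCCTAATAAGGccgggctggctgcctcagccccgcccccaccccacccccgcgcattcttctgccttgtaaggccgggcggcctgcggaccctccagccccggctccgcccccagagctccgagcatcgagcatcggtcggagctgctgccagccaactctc
Ankrd1, minus strand of chr19:36119845-36120094: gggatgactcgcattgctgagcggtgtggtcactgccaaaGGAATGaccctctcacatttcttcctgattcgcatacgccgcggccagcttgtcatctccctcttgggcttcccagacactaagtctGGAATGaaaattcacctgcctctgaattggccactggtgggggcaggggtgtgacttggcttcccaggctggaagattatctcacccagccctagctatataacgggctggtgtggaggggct
Acta2, minus strand of chr19:34255374-34255623: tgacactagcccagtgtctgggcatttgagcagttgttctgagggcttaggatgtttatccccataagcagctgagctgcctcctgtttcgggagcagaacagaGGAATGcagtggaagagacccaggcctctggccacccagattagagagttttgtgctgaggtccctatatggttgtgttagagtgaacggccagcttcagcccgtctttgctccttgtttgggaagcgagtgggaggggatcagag
Tpm1, minus strand of chr9:67049214-67049463: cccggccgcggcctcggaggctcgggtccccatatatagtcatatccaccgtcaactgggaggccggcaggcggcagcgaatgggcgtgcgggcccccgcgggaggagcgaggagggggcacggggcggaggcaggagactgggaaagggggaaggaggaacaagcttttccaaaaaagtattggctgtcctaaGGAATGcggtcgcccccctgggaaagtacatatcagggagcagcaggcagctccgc
The CArG box lay at bases -90 to -81 from the start of Actg1 and at -161 to -152 from that of Myl9. TEAD cores began at -210 and -123 in Ankrd1, at -146 in Acta2 and at -56 in Tpm1. Tagln2 held 2 TEAD cores, Pfn1 held 1, and in Cfl1 neither set of letters was found in the window. Among all 32851 windows of the same length, 1.47% held a CArG box and 12.6% a TEAD core. A match is a description of these letters and not evidence of binding. Gene positions given below are from RefSeq on the same build.

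Gene reads per cell ran from 1053225 to 8655652 (median 4631562) once the ribosomal RNA gene CT010467.1 was set aside, which took between 13.0% and 75.2% of all gene reads of a cell. Levels below are reads per 1000000 of the remaining gene reads (CPM), and a count of 3 reads stood for 0.347 to 2.85 CPM, so a gene was called detected in a cell at 5 CPM or more. Every level is a share of a cell's reads, and a change of total RNA per cell cannot be seen in it. Of the 6 day 0 cells, 4 had between 11.8% and 24.2% mitochondrially encoded reads among all gene reads and the other 2, cells 5 and 6, had 3.29% and 4.09%. Cells of day 3 and day 6 stayed at or below 7.50%, and on day 9 cell 4 reached 18.6%. Genes with a read ran from 5659 to 17298 per cell (median 11704). They were fewest in day 0 cells 1, 2 and 3, at 5659, 6814 and 9821. These were not the shallowest libraries, and the shallowest, day 9 cell 1, had 17142. A count of 0 in those day 0 cells therefore need not mean that a gene was off. Among 10 feeder fibroblast markers, 6 were detected in day 0 cell 6, with a summed level of 534 CPM, against at most 2 markers and 142 CPM in the other day 0 cells. Its leading ones were Col1a2 at 193 CPM and Thy1 at 138 CPM, and Lum was at 0 reads. Thy1 was also at 137 CPM in day 0 cell 3 and at 77.6 CPM in day 6 cell 2, grown without feeders. Col1a2 was at most 3.74 CPM in the other day 0 cells. Col1a1 and Col3a1 were at 70.7 and 51.2 CPM in cell 6 and at 41.7 and 41.1 CPM in day 0 cell 2. Col6a3 was at 36.1 CPM in day 0 cell 5 against 1.08 CPM in cell 6. Day 0 cell 6 had a read of all 6 smooth muscle markers (Cnn1 at 53.1 CPM) and Myl7 at 551 CPM. Neither was confined to it: day 0 cell 5 also had a read of all 6, and Cnn1 was at 145 CPM in day 0 cell 1. Myl7 was at 166, 272 and 152 CPM in day 0 cells 2, 4 and 5. The 6 pluripotency markers of day 0 cell 6 summed to 20302 CPM, inside the day 0 range of 8931 to 27584. All 24 cells carried pluripotency markers, with sums of 4651 to 27584 CPM, although Sox2 was counted at 0 in every cell. The sums were mostly 1 gene, Dppa5a, at 19392, 17446, 12124 and 8450 CPM on day 0, 3, 6 and 9. The next highest, Pou5f1, was at 254, 1255, 884 and 382 CPM. At 5 CPM or more, 5 of the 6 markers were detected in day 0 cell 6 and 2 in day 0 cell 1. Trophoblast markers summed to 1184 to 3624 CPM in the day 9 cells against at most 315 CPM in any earlier cell, and extraembryonic endoderm markers to 62.7 to 788 CPM against at most 101. Results that rest on day 0 cell 6 are given with and without it, and the part of these marker levels in the results was not tested.

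Each library is 1 cell and no separate cultures are named, so each day counts as 1 sample and no test was made. Ratios between days were taken on reads summed over the cells of a day, as log2 with 1 CPM added to both sides, and the median over all measured genes was subtracted. That median was 0.29, 0.38 and 0.56 for day 3, 6 and 9 against day 0, 0.10 for day 6 against day 3 and 0.11 for day 9 against day 6. The relative log2 ratios below are what remains, and 1 or more in size is called 2-fold. Intervals are exact 95% intervals for counting error only, and the comparisons with day 0 share its 6 cells.

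Taken as a set, the 10 genes did not move one way. Their median relative log2 ratio was -0.17 on day 3, -0.06 on day 6 and -0.38 on day 9 against day 0. On day 3, 1 member (Actb) was at least 2-fold higher, where 25.3% of the 14757 measured genes were, and 4 members (Acta2, Tagln, Ankrd1 and Myl9) were at least 2-fold lower, where 27.1% of genes were. On day 6, 2 members (Myl9 and Pfn1) were higher beside 27.0% of 15116 genes and 1 (Acta2) was lower beside 26.6%. On day 9, 1 member (Tpm1) was higher beside 26.1% of 15511 genes and 3 (Acta2, Ankrd1 and Tagln) were lower beside 27.6%. With 10 members a share moves in steps of 1 gene, and nothing particular to the set is read from these counts. The counts depend on the day 0 cells: without day 0 cell 6 the medians were 0.54, 0.17 and 0.90, with 3 members higher on each later day and 1 (Acta2), 1 (Acta2) and 0 lower. Without that cell Ankrd1 had no day 0 read and was not measured, so these values leave it out. Over day 0 cells 5 and 6 alone, no member (0) was 2-fold higher on any later day. Members differed in which way they went: the cytoplasmic actin Actb and the monomer carrier Pfn1 sat above day 0 on all later days, and Tpm1 on day 9. The smooth muscle type genes Acta2, Tagln and Myl9 were read in some cells and not in others.

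A stricter view counts genes whose lowest cell of a later day was above the highest day 0 cell. Actb was the only member to do so on day 3, where 2.83% of measured genes did, no member (0) did on day 6 beside 0.880% of genes, and Tpm1 was the only one on day 9 beside 2.34%. No member (0) had all its cells below all day 0 cells on any later day, where 0.339%, 0.298% and 0.193% of genes did on day 3, 6 and 9. The 10 genes together took 0.367% to 0.913% of a cell's gene reads on day 0, 1.05% to 2.02% on day 3, 0.994% to 1.98% on day 6 and 0.692% to 2.83% on day 9. The day 0 cells were thus all below the cells of day 3 and day 6, and overlapped those of day 9, and Actb made up most of the summed reads on every day.

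**Figure D1:**
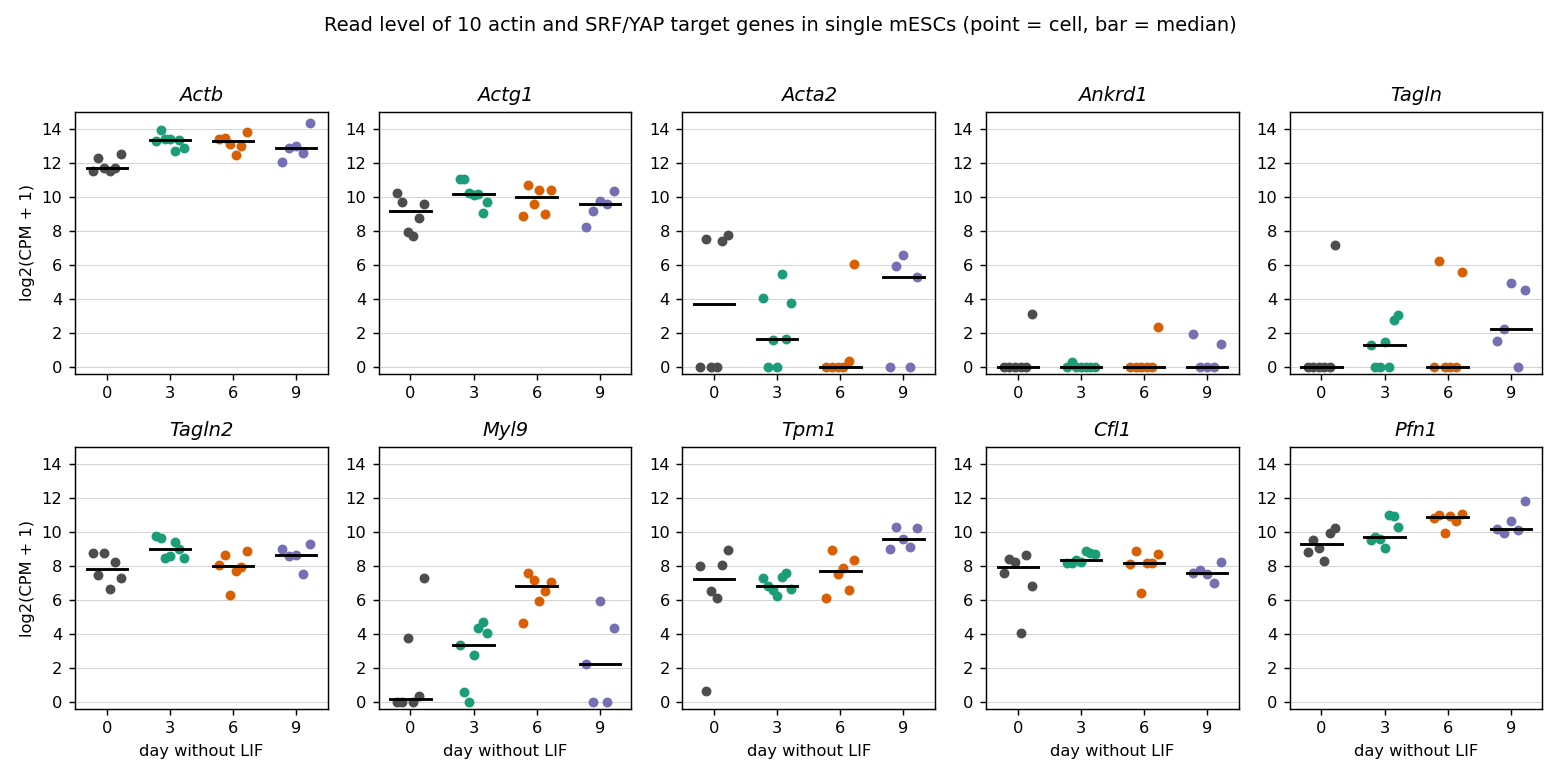
Read level of each of the 10 genes in each of 24 mESCs, as log2(CPM + 1) on the vertical axis against the day without LIF; each point is a cell and each bar the median of the day. Actb and Pfn1 sit higher on the later days, Tpm1 on day 9, and Acta2, Tagln, Myl9 and Ankrd1 are at 0 in many cells.

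Actb (ENSMUSG00000029580.14, chr5:142903115-142907976) encodes beta-actin, 1 of the actins that every non-muscle cell makes. It lay between 2938 and 5846 CPM in the 6 day 0 cells (median 3351), between 6792 and 16029 in the 7 day 3 cells (median 10406), and between 5761 and 14795 in the 6 day 6 cells (median 10021). In the 5 day 9 cells it was at 4244, 7469, 8353, 6232 and 21113 CPM. Day 0 and day 3 cells did not overlap, 5 of 6 day 6 cells and 4 of 5 day 9 cells were above every day 0 cell, and the spread was widest on day 9, where the coefficient of variation was 70.5% against 28.7% to 31.2% on the other days. Summed by day, Actb went from 3816 CPM (interval 3792 to 3841) to 10304, 9908 and 10802 CPM. The day 3 to day 0 ratio was 2.70 (2.68 to 2.72), a relative log2 ratio of 1.14, and on day 6 and day 9 it was just under 2-fold, at 0.995 and 0.942. On day 3 it ran from 0.81 to 1.26 as each cell was left out, the lowest being without day 0 cell 4, and it was 0.71 over the 2 day 0 cells with few mitochondrially encoded reads, so it was no longer 2-fold there. On day 9 the ratio rests in part on cell 5, without which it was 0.38. Actb overlaps the lncRNA gene Gm38733 at its end and the counting strand is not given, so reads of the shared stretch cannot be told apart.

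Actg1 (ENSMUSG00000062825.15, chr11:120345687-120348495) encodes gamma-actin, the other cytoplasmic actin. It spanned 205 to 1213 CPM on day 0 (median 612), 534 to 2181 on day 3 (median 1173) and 465 to 1670 on day 6 (median 1079). On day 9 the 5 cells had 302, 590, 878, 760 and 1316 CPM. The days overlapped throughout, and 2 of 7 day 3 cells were above every day 0 cell. The day 3 to day 0 ratio was 1.99 (1.96 to 2.03), or 0.70 relative to the median gene, and on day 6 and day 9 the relative log2 ratios were 0.29 and -0.08. Relative to other genes, then, Actg1 stood on day 9 about where it stood on day 0, while Actb stayed above. Actg-ps1, by its name a pseudogene of this gene, held 56 reads in all against 118678 for Actg1, and reads that fit both could have been lost to either. Pseudogenes of the members were looked for by name only. Reads without a unique alignment made up 3.86% to 18.8% of a cell's total and were not counted for any gene.

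Acta2 (ENSMUSG00000035783.9, chr19:34240336-34255585) encodes the alpha-actin of smooth muscle, also made by myofibroblasts, and had no read in 11 of 24 cells. On day 0, cells 2, 5 and 6 had 183, 169 and 221 CPM, and the other 3 cells had no read. On day 3 the 7 cells had 15.96, 0, 1.98, 0, 43.8, 2.11 and 12.4 CPM. No day 3 cell came near the 3 day 0 cells that had it. On day 6, cell 6 had 66.8 CPM, cell 5 had 0.269 and the other 4 had 0. The 5 day 9 cells had 0, 59.7, 96.3, 0 and 38.0 CPM. Acta2 was thus detected in 10 of 24 cells, and its highest later cell, at 96.3 CPM, was below each of the 3 day 0 cells that had it. By day it was at 83.1 CPM (interval 79.5 to 86.8), 11.7 (10.4 to 13.0), 10.6 (9.62 to 11.5) and 49.4 (46.7 to 52.2). The relative log2 ratios to day 0 were -3.02, -3.25 and -1.30, and day 9 against day 6 was 2.01. The low levels of days 3 and 6 did not rest on day 0 cell 6, since 58.7 CPM remained on day 0 without it, and the day 3 ratio stayed between -3.90 and -2.72 as each cell was left out. The remaining day 0 reads were in cells 2 and 5, which also carried some feeder fibroblast markers, as given above. The part of those markers was not tested. The day 6 value moves to -6.67 and the day 9 to day 6 value to 5.43 without day 6 cell 6, and the day 9 ratio to day 0 ranged from -2.03 (without day 9 cell 3) to -0.90 (without day 9 cell 4).

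Cfl1 and Pfn1 handle actin monomers. Cfl1 (ENSMUSG00000056201.8, chr19:5490455-5494031) encodes cofilin 1, which cuts and disassembles aged filaments. It spanned 15.7 to 396 CPM on day 0 (median 250), 290 to 484 on day 3 (median 324) and 85.9 to 466 on day 6 (median 293). On day 9 the cells had 194, 217, 181, 126 and 304 CPM. All days overlapped, and the coefficient of variation was 21.9% on day 3 against 64.1% on day 0. Its relative log2 ratios to day 0 were 0.45, 0.06 and -0.69, and so it never reached 2-fold; without day 0 cell 4, the cell at 15.7 CPM, the day 9 value was -1.17.

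Pfn1 (ENSMUSG00000018293.4, chr11:70651844-70656799) encodes profilin 1, which loads actin monomers for filament growth. It spanned 317 to 1214 CPM on day 0 (median 638), 538 to 2043 on day 3 (median 836) and 976 to 2155 on day 6 (median 1895). Day 9 cells had 1145, 1003, 1594, 1103 and 3637 CPM. On day 6, 5 of 6 cells were above every day 0 cell, and on day 9 this held for 2 of 5, although the summed level was higher. The sums were 677, 1298, 1779 and 1884 CPM, and the relative log2 ratios to day 0 were 0.65, 1.01 and 0.91. Over the 2 day 0 cells with few mitochondrially encoded reads, which were the highest in Pfn1 on day 0, they were -0.21, 0.18 and 0.11, so the difference from day 0 depended on the other 4 cells. Without day 0 cell 4 the day 6 value was 0.63 and without day 9 cell 5 the day 9 value was 0.37. Pfn1 overlaps Eno3, which held 4289 reads in all against 180113 for Pfn1.

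Tpm1 (ENSMUSG00000032366.15, chr9:67022590-67049672) encodes tropomyosin 1, which lies along the filament and governs how myosin and cofilin reach it. It spanned 0.579 to 494 CPM on day 0 (median 173), 74.2 to 195 on day 3 (median 114) and 69.7 to 502 on day 6 (median 213). The 5 day 9 cells had 520, 1251, 781, 549 and 1215 CPM. Every day 9 cell was therefore above every cell of day 0, day 3 and day 6, the closest being day 6 cell 2 at 502 CPM and day 9 cell 1 at 520. By day the level was 196 CPM (interval 191 to 202), 138 (134 to 143), 227 (222 to 231) and 907 (896 to 919). The day 9 to day 0 ratio was 4.63 (4.48 to 4.77) and the day 9 to day 6 ratio 4.00 (3.91 to 4.09). Their relative log2 values of 1.64 and 1.88 stayed within 1.23 to 1.91 and 1.55 to 2.15 as each cell was left out. Over the 2 low-mitochondrial day 0 cells, which held 272 and 494 CPM, the day 9 to day 0 value was 0.56 and was not 2-fold. The trophoblast marker sum, mostly Krt8 and Krt18, was also highest in the day 9 cells, as given above.

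Tagln2 (ENSMUSG00000026547.15, chr1:172500246-172507375) encodes transgelin 2, an actin-binding relative of the smooth muscle protein transgelin found in many cell types. It spanned 101 to 437 CPM on day 0 (median 237), 353 to 860 on day 3 (median 510) and 79.4 to 467 on day 6 (median 256). Day 9 cells had 509, 392, 404, 184 and 628 CPM. On day 3, 4 of 7 cells were above every day 0 cell, and on day 6, 4 of 6 cells were below every day 3 cell. Its relative log2 ratio was 0.75 on day 3, -0.43 on day 6 and -0.02 on day 9 against day 0. Day 6 against day 3 was -1.18, which stayed between -1.36 and -1.04 as each cell was left out.

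Myl9 (ENSMUSG00000067818.6, chr2:156775408-156781657) encodes a regulatory light chain of smooth muscle and non-muscle myosin, whose phosphorylation turns on contraction. On day 0, cell 6 had 156 CPM, cell 3 had 12.9, cell 5 had 0.289 and the other 3 had 0. On day 3 the 7 cells had 9.29, 0.487, 0, 5.76, 19.6, 24.7 and 15.96 CPM. Both days were thus low apart from day 0 cell 6. On day 6 the 6 cells had 24.4, 196, 146, 60.9, 92.6 and 132 CPM. The 5 day 9 cells had 3.80, 0, 60.5, 0 and 19.5 CPM. Day 6 was the only day on which every cell was detected, and 5 of its 6 cells were above every day 3 cell. The sums were 26.2, 13.2, 102 and 23.7 CPM, so that day 6 stood above day 3 by a relative log2 ratio of 2.76 (2.52 to 3.14 as each cell was left out) and day 9 below day 6 by -2.17 (-3.69 without day 9 cell 3, -1.76 without day 9 cell 4). Of its 640 day 0 reads, 90.2% came from cell 6. With that cell the relative log2 ratios to day 0 were -1.23, 1.54 and -0.70, and without it they were 1.31, 4.12 and 1.87, so the directions of the day 3 and day 9 values turned. Over day 0 cells 5 and 6 alone, the cells with few mitochondrially encoded reads, the day 6 value was -0.18.

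Tagln (ENSMUSG00000032085.5, chr9:45929628-45936058) encodes transgelin, also called SM22 alpha, a textbook SRF target of smooth muscle. All of its 538 day 0 reads came from cell 6, at 146 CPM, and the other 5 cells had 0. On day 3 the 7 cells had 1.43, 0, 0, 1.80, 0, 5.69 and 7.42 CPM. Day 3 therefore had no cell near the level of day 0 cell 6. On day 6, cells 2 and 6 had 74.9 and 46.4 CPM and the other 4 had 0. On day 9 the cells had 1.90, 3.65, 30.4, 0 and 21.8 CPM. Tagln was thus detected in 7 of 24 cells. The relative log2 ratios to day 0 were -2.85, -0.65 and -1.03 with cell 6. The day 6 value was -1.61, past 2-fold, without day 6 cell 2, and the day 9 value -1.72 without day 9 cell 3. Without day 0 cell 6, day 0 held 0 reads. Set against 3 reads over those 5 cells, the day 6 and day 9 levels were 125-fold and 108-fold higher. The 3 reads allow for counting error and not for the spread between cells, so these values are no lower bounds on the difference between days. They rest in part on day 6 cell 2, which held 479 of 804 reads, and day 9 cell 3, with 242 of 404, and were 58.9-fold and 62.4-fold without them. The day 3 sum of 2.89 CPM then also stood above a day without a read. Day 6 against day 3 was 2.19 and was 1.26 without day 6 cell 2. Tagln overlaps the end of Pcsk7, which held 613 reads in all against 1825 for Tagln.

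The smooth muscle type genes were compared within cells, and detection of Tagln went with detection of Myl9. All 7 cells with Tagln at 5 CPM or more also had Myl9 at that level, while 8 cells had Myl9 and not Tagln. Acta2 and Tagln were detected together in 5 cells, and Acta2 without Tagln in 5. All 3 genes were detected in 5 cells, which were 1 of day 0 (cell 6), 1 of day 3, 1 of day 6 and 2 of day 9. On day 0, 3 cells had 1 of the 3 genes and 2 cells had none. Whether the cells of a day came from 1 dish is not stated in the labels. Smooth muscle markers summed to at most 145 CPM in any cell, and that maximum was in day 0 cell 1, where Acta2, Tagln and Myl9 were all at 0. It was all Cnn1, the only 1 of the 6 markers read there. The next sums were 111 CPM in day 6 cell 6 and 94.3 CPM in day 0 cell 6, each with all 3 genes detected, and 94.0 CPM in day 3 cell 2, with none.

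Ankrd1 (ENSMUSG00000024803.9, chr19:36111965-36119844) encodes a small ankyrin repeat protein first known from heart and is among the most used reporters of YAP activity. It was nearly absent. The reads numbered 29 on day 0, 1 on day 3, 29 on day 6 and 13 on day 9, and 19 of 24 cells had 0. The cells with reads were day 0 cell 6 (29 reads, 7.86 CPM), day 3 cell 2 (1 read), day 6 cell 6 (29 reads, 4.14 CPM) and day 9 cells 1 and 5 (3 and 10 reads). Only day 0 cell 6 passed 5 CPM, and without it day 0 had no read. The day 3 to day 0 ratio was 0.0308 with a counting interval of 0.000755 to 0.186, and the relative log2 ratios of -1.37, -0.79 and -1.10 depend on the 1 CPM added to both sides: with 0.1 CPM added, the day 3 value was -3.60.

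**Figure D2:**
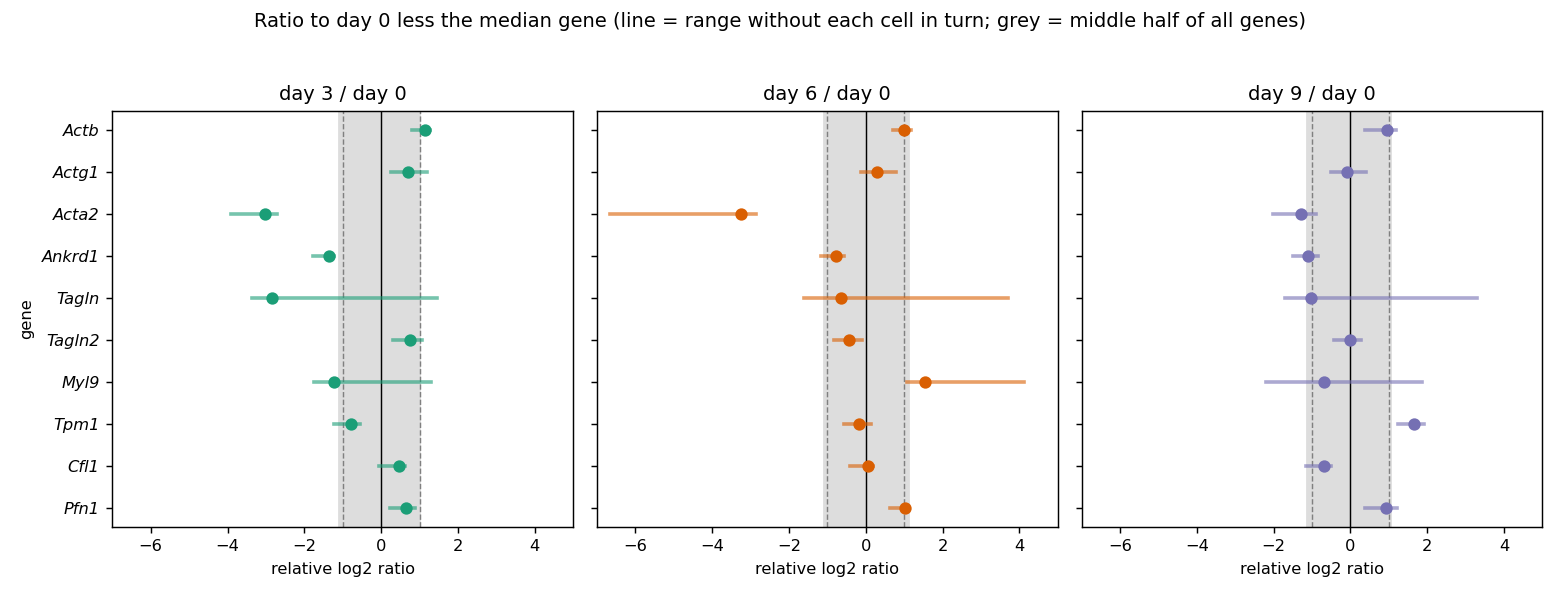
Relative log2 ratio of each of the 10 genes on day 3, 6 and 9 against day 0 (horizontal axis; 0 is the median gene); points use all cells, lines span the values with each cell left out in turn, the grey band holds the middle 50% of all measured genes and dashed lines mark 2-fold. Tagln has the longest line on each day and Myl9 lines cross 0 on day 3 and day 9, where day 0 cell 6 held 100% and 90.2% of the day 0 reads, and Tpm1 on day 9 lies beyond the 2-fold line over its whole length. Ankrd1 lines hold no value without day 0 cell 6, since Ankrd1 was then not measured. That cell held 100% of its day 0 reads, so these short lines do not show its dependence on that cell.

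Between later days, 2 members (Tagln and Myl9) were at least 2-fold higher on day 6 than on day 3, beside 21.2% of 15260 genes, and 1 (Tagln2) was lower beside 19.4%. On day 9 against day 6, 2 members (Acta2 and Tpm1) were higher beside 23.7% of 16069 genes and 1 (Myl9) was lower beside 21.8%. The medians of the 10 genes were 0.10 and -0.14. Day 6 thus combined the highest Myl9 with low Acta2, and day 9 the highest Tpm1 with less Myl9.

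**Figure D3:**
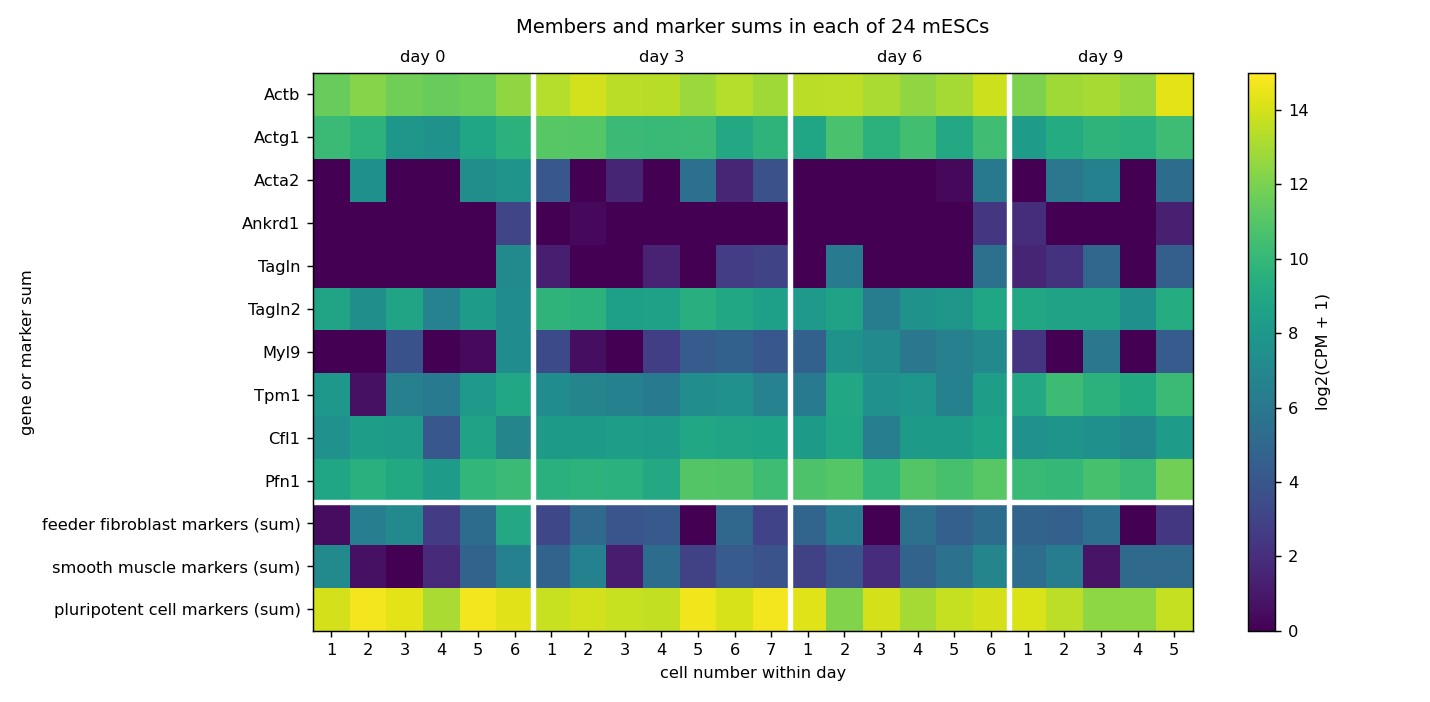
Level of the 10 genes (upper rows) and summed level of 3 marker lists (lower rows) in each of 24 mESCs, coloured by log2(CPM + 1) from 0 to 15, with cells in columns by day. Day 0 cell 6 has the highest feeder fibroblast sum (534 CPM) together with the only day 0 reads of Tagln and Ankrd1. Its pluripotency sum of 20302 CPM lies among those of the other day 0 cells, and summed over day 0 that list is mostly Dppa5a.

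How alike the members were across cells was described by Pearson correlations of log2(CPM + 1) over the 24 cells, which share days, depth and the ribosomal RNA load of each library. The most alike pairs were Tagln2 and Cfl1 at 0.65, Myl9 and Pfn1 at 0.63, Ankrd1 and Tagln at 0.62, and Actb and Actg1 at 0.61. With the day means removed they were 0.66, 0.54, 0.62 and 0.46. Ankrd1 with Tagln dropped to 0.45 without day 0 cell 6, and Tagln with Myl9, at 0.57, was 0.72 within days. Outside the set, among 4890 genes with a mean of at least 20 CPM and reads in at least 12 cells, Actb was most like Nabp2, Acadl and Ybx1 (0.79 each), and with the day means removed these were 0.54, 0.49 and 0.69. Acta2 was most like Mrps2 (0.68), Plec (0.66) and Dnlz (0.65), of which Plec encodes plectin, a linker between filament systems. Tagln was most like Btg2 (0.62), Taf13 (0.62) and Sdad1 (0.60). Among the genes most like Ankrd1 were Cox5a (0.69) and Myl6 (0.57), over 5 cells with any Ankrd1 read.

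The members were then set beside 99 other genes of actin, SRF and Hippo biology in 8 lists, 1 of which (further actins) had at most 1 measured gene. Against day 0, 13 of 91 measured genes were at least 2-fold higher and 33 lower on day 3 (median -0.43), 17 of 89 higher and 34 lower on day 6 (median -0.50), and 20 of 92 higher and 18 lower on day 9 (median 0.19). On day 9 against day 6, 34 of 93 were higher and 9 lower (median 0.59). The shares over all genes are those given above, between 21.8% and 27.6% in those comparisons. The genes named below, for 6 of the lists, are those with the largest day 9 to day 0 ratio in either direction, so their size is a description.

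On day 9 against day 0, 26.1% of all genes were at least 2-fold higher and 27.6% lower. In the list of genes that start new filaments, 3 of 9 were at least 2-fold higher on day 9 against day 0 and 0 lower. They were Wasl, which encodes N-WASP, the activator of the Arp2/3 complex that branches filaments, at 12.0 CPM on day 0 and 31.8, 54.8 and 97.1 later, and the Arp2/3 subunits Arpc5 (21.2 to 114 CPM from day 0 to day 9) and Arpc3 (57.9 to 241 CPM). Wasl had a relative log2 ratio of 2.36 on day 9, with 2.05 or more as each cell was left out and 1.62 over the low-mitochondrial day 0 cells. Arpc3, at 1.48, was 0.99 without day 0 cell 4 and 0.05 over the low-mitochondrial cells. The day 0 level of Arpc5 came mostly from cell 2, at 141 CPM, and its ratio of 1.82 was 5.03 without that cell and 4.37 over the low-mitochondrial cells. In the turnover list 1 of 14 genes was higher and 3 lower. Tmsb10, a thymosin that holds actin monomers, was at 924, 579, 2448 and 4817 CPM, and all day 9 cells (1678 to 8472) were above all day 0 cells (379 to 1620). Its day 9 ratio of 1.82 was 0.95, no longer 2-fold, over the low-mitochondrial day 0 cells. Pfn2, the second profilin, was at 21.4 CPM on day 0 and 6.48 on day 9, a relative log2 ratio of -2.14 that was -0.84 without day 0 cell 4. Cap1, which recycles monomers, had a ratio of -1.08 that was -0.03 without day 0 cell 2 and -0.55 over the low-mitochondrial cells.

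Of 18 crosslinking and myosin genes, 9 were at least 2-fold lower on day 3 and 1 was higher, and on day 9 there were 4 lower and 3 higher. Of all genes, 27.1% were lower and 25.3% higher on day 3, and 27.6% and 26.1% on day 9. Vcl encodes vinculin, which ties filaments to adhesion sites; it was at 109 CPM on day 0 and 18.8, 29.1 and 13.1 later. Its relative log2 ratio on day 9 of -3.53 was -2.12 without day 0 cell 4 and -2.89 over the low-mitochondrial day 0 cells. Actn1, the crosslinker alpha-actinin 1, had -2.46, which was -0.37 without day 0 cell 1. Myh10, a non-muscle myosin heavy chain, had -2.28 and turned to 1.96 over the low-mitochondrial day 0 cells, so its direction depended on the other 4.

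Srf, the gene of SRF itself, was lowest on day 3 and day 9, at 26.4, 2.49, 15.3 and 1.62 CPM. Its day 9 ratio of -3.94 was -0.50 without day 0 cell 4, where it reached 163 CPM, and -1.35 over the low-mitochondrial cells. The cofactor gene Mrtfb had -3.36 on day 9, -1.29 without the same cell and -0.43, under 2-fold, over the low-mitochondrial cells. Fhl1, which encodes a LIM protein known from muscle, was at 27.0 CPM on day 0 and 69.2 on day 9 (0.77). Most of its day 0 level came from cell 3, at 114 CPM, and the ratio was 2.82 without that cell and 1.44 over the low-mitochondrial cells. In all, 1 of 7 measured genes of the SRF list was higher on day 9 and 2 were lower. Of all genes, 26.1% were higher and 27.6% lower.

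In the Hippo list, day 9 had 5 of 17 genes at least 2-fold higher and 2 lower against day 0. Of all genes, 26.1% were higher and 27.6% lower. Against day 6, 10 were higher and 2 lower, where 23.7% and 21.8% of all genes were. Yap1 was at 0.818 CPM on day 0 (20 reads), then at 10.6, 13.0 and 37.6 CPM. All 5 day 9 cells (8.89 to 95.8 CPM) were above every day 0 cell (0 to 1.84 CPM). Its relative log2 ratios of 2.39, 2.57 and 3.85 stayed at or above 2.03, 1.68 and 3.03 without any 1 cell, and were 2.33, 2.53 and 3.84 over the low-mitochondrial day 0 cells. Amot, which encodes angiomotin, a scaffold that binds YAP and actin, was at 1.15, 1.02, 12.4 and 121 CPM, with a day 9 relative log2 ratio of 5.28 (3.71 or more as each cell was left out, and 3.97 over the low-mitochondrial day 0 cells). Tead3, a DNA-binding partner of YAP, was near 0 until day 9, when it summed to 28.4 CPM, with 0 to 85.4 CPM in single cells; its ratio of 4.05 was 1.24 without day 9 cell 3.

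YAP and TAZ targets other than Ankrd1 were mixed, with 5 of 18 higher and 5 lower on day 9 against day 0. Over all genes the shares were 26.1% and 27.6%. Igfbp3, a secreted binder of insulin-like growth factors, was at 3.03 CPM on day 0 and 58.3 on day 9 (19.0 to 120 CPM in the 5 cells), a relative log2 ratio of 3.32 that stayed at 2.95 or more and was 5.08 without day 0 cell 4. Arhgef17 had 2.85 and 0.51 without day 9 cell 3. Asap1, which encodes an Arf regulator of adhesion sites, had -1.99 and 0.33 without day 0 cell 4. On day 9, Yap1 and Amot were higher and Ankrd1 had 13 reads, all in cells 1 and 5. A relation between these levels was not tested.

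**Figure D4:**
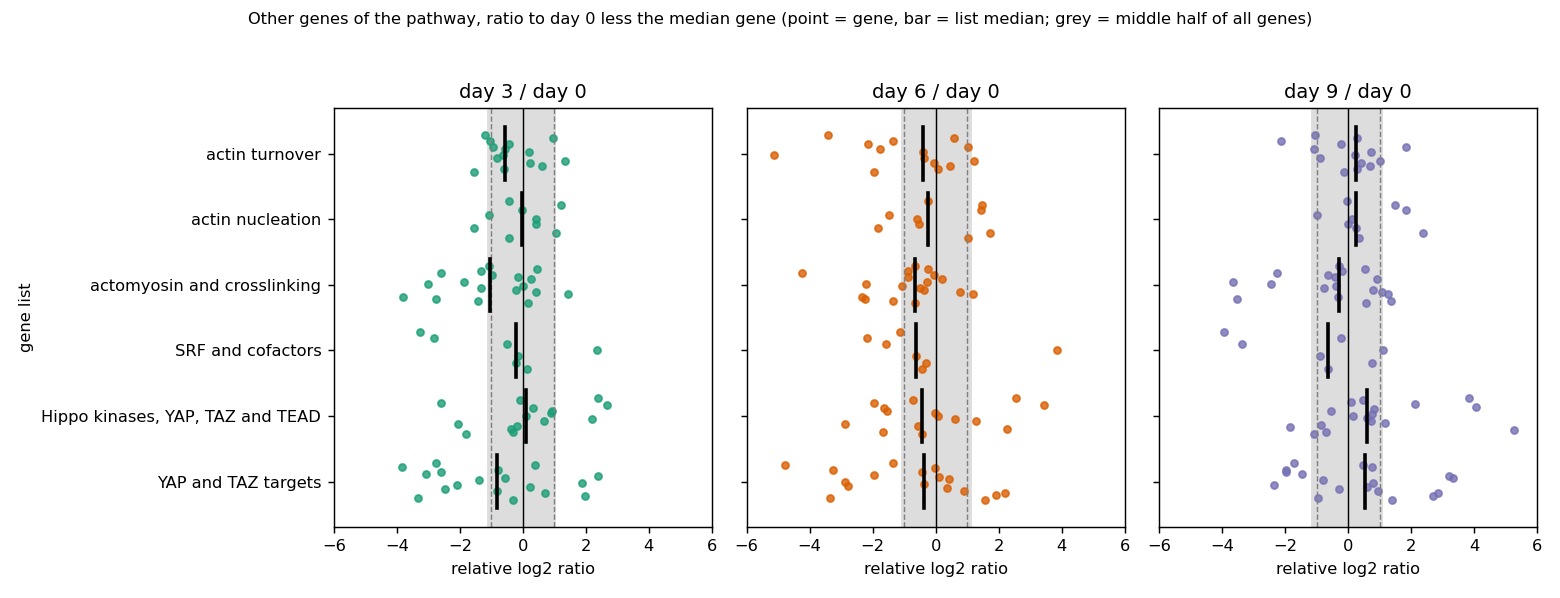
Relative log2 ratio to day 0 of the measured genes of 6 pathway lists on day 3, 6 and 9 (points, members left out; bars are list medians; the grey band holds the middle 50% of all measured genes; dashed lines mark 2-fold). Most list medians lie between -1 and 1, and the points farthest to the right on day 9 are Hippo genes, led by Amot at 5.28.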

How the data were processed

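RNA of 24 single mESCs was analysed from whole-number counts of reads per gene, 1 table a cell, as deposited by the authors. Per the submitters' processing notes, the series used the mm10 genome, Bowtie2 2.2.9, Trim Galore 0.6.7 and Bismark. How RNA reads were aligned and counted, and with which strand setting, is not given in the sources used here. Reads carry no molecular identifiers. The 5 closing lines that name no gene, which hold reads outside genes or not assigned to 1 gene (21.3% to 60.5% of a cell's total), were left out. Gene IDs were matched to symbols without their version suffix (55141 of 55401), and positions came from RefSeq on GRCm38.p6, a patch release of the assembly behind mm10.

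From the counts, CPM was computed over gene reads without CT010467.1, reads were summed by day, and log2 ratios with a pseudocount of 1 CPM were taken relative to the median of measured genes, those whose 2 days together held 20 reads or more, spread over 2 cells or more. Cells of 1 day are not replicates of a culture, so no p-value was computed. Exact Poisson intervals on levels and exact conditional binomial intervals on ratios, both 95%, cover counting error. No 2 libraries of a day agreed within sampling noise. No cell was removed and no doublet caller was run. The members and lists were chosen with earlier results of these data known. Named besides the members are up to 3 genes per pathway list with the largest day 9 to day 0 ratio, at 20 CPM or more in the higher day and with reads in at least 50% of its cells, and the 3 genes most like Actb, Acta2, Tagln and Ankrd1, except that 1 of these genes and 1 pathway list are not reported here. Myl12b, on 2 IDs, was left out. Alternatives were other totals, edgeR 4.0.16 TMM and DESeq2 1.42.0 factors, mean or median over cells, pseudocounts, read minimums, day 0 cells with under 10% mitochondrially encoded reads, and leaving out each cell. Scripts ran in Python 3.11.15 (numpy 2.4.6, pandas 2.3.3, scipy 1.17.1, matplotlib 3.10.9) and R 4.3.3. The ratio step was tested on simulated counts, with changes set in genes at 20 CPM or more and 1 spread between cells for all genes. Genes whose reads come from few cells, such as Tagln and Ankrd1, are not covered by that check.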

Additional observations from a re-analysis of the deposited data

Results flagged for a closer look

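Within a day, 7 of 40 gene and day groups held a cell set apart from the others by a wide gap on the log2 scale. For normally distributed values chance sets apart about 1 group in 20, and these groups are no test of that rate, since in 4 of the 7 every other cell was at 0. High cells were Tagln in day 0 cell 6 at 146 CPM, Ankrd1 in the same cell at 7.86 CPM, Acta2 in day 6 cell 6 at 66.8 CPM and Ankrd1 in that cell at 4.14 CPM. Ankrd1 in day 3 cell 2, at 0.244 CPM, rests on 1 read. Low cells were Tpm1 in day 0 cell 2 at 0.579 CPM (2 reads) and Cfl1 in day 6 cell 3 at 85.9 CPM. Of these cells, day 0 cell 6 also held the highest feeder fibroblast marker sum, 534 CPM, and day 0 cell 2 had 11.8% mitochondrially encoded reads; their part in the gaps was not tested.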

How the results depend on the processing

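No paired analysis was possible because a replicate number names a cell of 1 day and no test was made. Of 525 member values recomputed under other settings with all cells, 503 moved by less than the spread between cells, and of 592 with 1 cell left out, 584 did. Among these, Tagln and Myl9 were the members whose values past 2-fold turned in direction. Some values under 2-fold also crossed 0: on day 6 against day 0, Actg1 (0.29) and Cfl1 (0.06) were -0.12 and -0.41 without day 0 cell 4 and Tpm1 (-0.17) was 0.14 without day 6 cell 1, and on day 3 Cfl1 (0.45) was -0.05 without day 0 cell 4 and Pfn1 (0.65) was -0.21 over the low-mitochondrial day 0 cells. Where a day was its cells' median CPM and not their sum, Tagln was 0.84 on day 3 and 1.47 on day 9 against day 0 and -1.28 on day 6 against day 3, and Myl9 was 2.73 on day 3. With each cell left out in turn, Tagln ran from -3.37 to 1.45 on day 3, from -1.61 to 3.69 on day 6 and from -1.72 to 3.30 on day 9, and Myl9 from -1.74 to 1.31 on day 3 and from -2.21 to 1.87 on day 9, the upper ends all being without day 0 cell 6. Over the day 0 cells with under 10% mitochondrially encoded reads, Myl9 was -0.18 on day 6, the day 3 median of the members was -1.07, no member (0) was 2-fold higher on day 3, 6 or 9, and 4 were lower on day 6. On day 3, members at least 2-fold lower numbered 2 with the median over cells or a pseudocount of 10 CPM, and members higher numbered 2 with that median or a minimum of 1 read. On day 6, 1 member was higher without mitochondrially encoded reads in the total, with a pseudocount of 0.1 CPM or with a minimum of 200 reads, and 2 were lower with a pseudocount of 0.1 CPM. On day 9, members lower numbered 1 with all gene reads in the total, TMM or DESeq2 factors or a minimum of 200 reads, and 0 with a pseudocount of 10 CPM or a minimum of 1 read. Members higher on day 9 numbered 3 with all gene reads, the median over cells, a pseudocount of 10 CPM or a minimum of 1 read, and 2 with a minimum of 200 reads, under which Ankrd1 was not measured. The cause of these shifts was not tested.

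With each cell left out, the members lower on day 3, 6 and 9 ranged from 1 to 5, 1 to 3 and 0 to 5, and those higher from 0 to 3, 1 to 3 and 1 to 3. The medians ranged from -0.64 to 0.54, from -0.49 to 0.17 and from -0.83 to 0.90, the last without day 0 cell 6, from -0.26 to 0.56 for day 6 against day 3, and from -0.53 to 0.15 for day 9 against day 6. Ankrd1 was not measured in some of these settings, among them that without day 0 cell 6, and is then left out of the counts and medians. Depth limits Ankrd1, Tagln and Acta2, since a cell's 3-read level reached 2.85 CPM in the shallowest library. So does the number of genes read, which was lowest in day 0 cells 1, 2 and 3 (5659, 6814 and 9821). Those were not the shallowest libraries.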
